A study of Pomacea canaliculata with 36 samples.

Results

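The genes described here are 96 transcripts of the apple snail eye stalk that almost vanished after amputation and passed an eighth of their intact level for the first time at 9 days post amputation (dpa). They were chosen on measured group means in CPM, out of 21131 genes. CPM is the reads of a gene relative to all reads of its library, scaled between libraries by TMM. A member had at least 5 CPM in intact eye stalks, at most 12.5% of its intact mean at 1, 3 and 6 dpa, more than 12.5% at 9 dpa, and more than 25% at 28 dpa. The levels in those 6 groups are therefore the selection itself and are given as a description. Levels at 12, 15 and 21 dpa were not used to choose the genes. The tests below rest on them or on libraries that had no part in the choice. Those libraries may share animals with the ones that did the choosing, and would then not be independent of it.

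The apple snail, *Pomacea canaliculata*, is a freshwater gastropod that carries a camera-type eye, with a lens in front of a retina, at the tip of each eye stalk. After the stalk is cut the wound closes, a new eye primordium forms and a lens and a retina differentiate from it. A lens is filled with a few abundant structural proteins, and a retina makes the proteins that detect light and pass the signal on. That is background from work on this animal and not a result of these data.

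Polyadenylated RNA of eye stalks was sequenced in 9 groups of 4 libraries: Intact, with no amputation, and 1, 3, 6, 9, 12, 15, 21 and 28 dpa. The labels give no strain, sex or age, do not say what part of a stump was taken or whether a library is 1 animal or a pool, and name no treatment beyond amputation, so every p-value below measures the spread between these libraries, which may be technical. The submitters' design text lists a day 7 where the library labels have day 6, and the labels were followed. The genes carry RefSeq locus symbols, the sources used here give no product names, and so no role is assigned to any gene and the labelled tissue was not checked against markers.

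The libraries held 21797015 to 32928737 counts, and after TMM scaling 1 CPM was 19.2 counts in the shallowest. No 2 libraries of a group agreed within sampling noise. Some libraries sat high or low for many members at once. Intact replicate 1 was the highest of its group in 67 of the 96 genes and Intact replicate 4 the lowest in 57. At 3 dpa replicate 4 was the highest of its group in 62 genes, at 15 dpa replicate 1 in 54, and at 28 dpa replicate 2 was the lowest of its group in 60. Some results moved with a single library, and examples are given with and without it. The labels do not give the part of a stalk that was sampled. In its bulk RNA, fewer cells of a type and less RNA per cell cannot be told apart, which touches every level below.

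The 96 genes fell out of a short series of steps. Of 12066 genes with 5 CPM or more in intact stalks, 722 were at or under an eighth of that level at 1 dpa. Of those, 426 were also so low at 3 dpa and 289 at 6 dpa. Then 100 of the 289 exceeded an eighth at 9 dpa, and 96 of the 100 exceeded 25% at 28 dpa. All 96 passed the filter on low counts. Of these, 8 had no count in at least 1 of the 12 libraries of 1, 3 and 6 dpa, and no member was without counts in all 12.

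The members were spread over a wide range of abundance. In intact stalks 20 of them had 100 CPM or more, 59 had 10 to under 100 CPM and 17 had 5 to under 10 CPM. Their median was 32.2 CPM, beside 27.9 CPM for all genes of 5 CPM or more. Together they held 1.02% of all counts in intact stalks and 0.0359% at 1 dpa. CPM is not corrected for transcript length, so levels are compared within a gene and not between genes.

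As a group the members were near 5% of intact for 3 days, higher by 6 and 9 days, similar at 12 and 15 days and highest at 28 days. On days 1, 3 and 6 the median gene stood at 4.64%, 4.62% and 9.02% of its intact mean. It reached 18.3% by day 9 and 34.2% by day 12. On days 15, 21 and 28 it was at 32.3%, 41.0% and 53.6%. The median of all 12066 genes of 5 CPM or more lay between 97.3% and 103.7% at each of these times. At 28 dpa 57 of the 96 genes were above 50% of their intact mean, and 3 were above 100%.

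The same shape was present in each set of 4 libraries. The median member per library was 88.5% to 115.3% of the intact mean in the Intact libraries, 4.19% to 4.71% at 1 dpa and 3.62% to 5.95% at 3 dpa. It was 7.13% to 9.42% at 6 dpa and 16.8% to 21.0% at 9 dpa. The 12 dpa libraries lay at 30.2% to 35.7%, the 15 dpa libraries at 30.4% to 34.0%, the 21 dpa libraries at 39.1% to 42.6% and the 28 dpa libraries at 45.2% to 59.9%. The 12 and 15 dpa libraries overlapped in this measure, while every 21 dpa library was above them and every 28 dpa library above those.

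**Figure D1:**
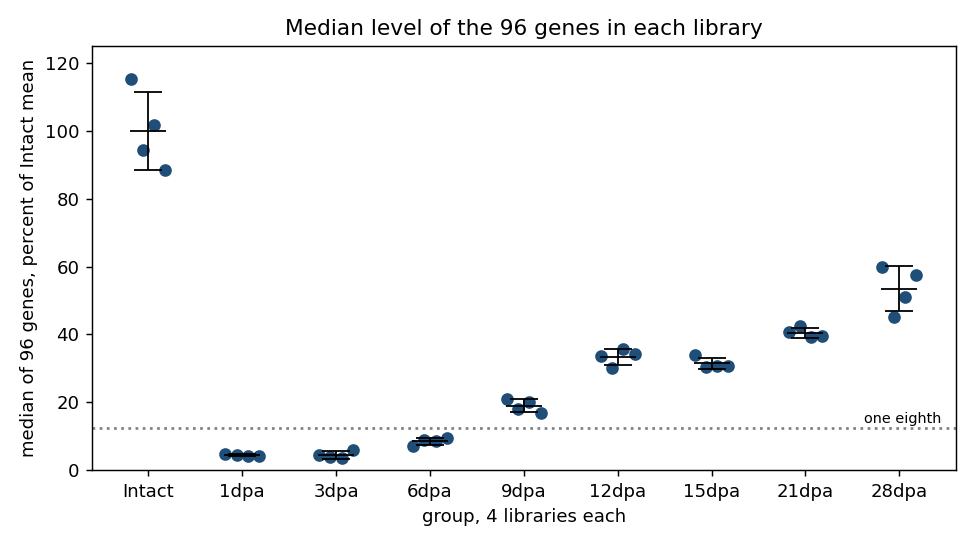
Median over the 96 genes of the level as percent of the Intact mean (vertical axis), for each library (points) by group, with the mean and SD of 4 libraries; the dotted line marks an eighth, 12.5%. Libraries of 1, 3 and 6 dpa sit below the line and those of 9 dpa between 16.8% and 21.0%, which the choice of genes fixed, and the 12 and 15 dpa libraries overlap.

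The return at 9 dpa was shallow for most members, and the threshold cut through a continuum. At 9 dpa 21 genes stood between 12.5% and 15%, 57 between 12.5% and 20%, 72 below 25%, and 3 above 50%. On the other side, 37 members had already reached 10% to 12.5% at 6 dpa. Just inside the 9 dpa threshold were LOC112555779 at 12.69% and LOC112566395 at 12.77%; just outside it were LOC112553235 and LOC112557718, both at 12.46%. At 6 dpa LOC112561278 at 12.42% and LOC112566849 at 12.39% were just inside, and LOC112570095 at 12.53% and LOC112554423 at 12.62% just outside. At 28 dpa LOC112568459 at 25.9% and LOC112568903 at 28.2% were just inside the 25% limit, and LOC112571358 at 24.0% and LOC112570730 at 21.6% just outside.

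The 9 dpa libraries did not all place each member above an eighth. All 4 did so for 62 genes, 3 of 4 for 27 genes, 2 of 4 for 6 genes and 1 of 4 for a single gene. Leaving out one 9 dpa library put between 1 and 4 members back under the threshold, and 8 genes were affected by at least 1 such omission. From 6 to 9 dpa the fold between group means had a median of 2.40 over the 96 genes, with a range of 1.11-fold to 31.4-fold. All 4 libraries of 9 dpa were above all 4 of 6 dpa in 77 of the 96 members, where 10.4% of the 17341 tested genes had that order; the choice of genes used this contrast, so nothing is read from the difference.

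LOC112563881 had by far the most reads, 32.4% of the summed CPM of the members in intact stalks. Its 4 Intact libraries held 3244, 2942, 3304 and 3198 CPM. At 1 dpa they held 43.3, 55.2, 36.3 and 29.5 CPM. That is a residue of 1.30% of the intact mean. The 6 dpa libraries held 100.5, 87.5, 75.9 and 87.9 CPM, and the 9 dpa libraries 765.5, 475.9, 697.4 and 396.1 CPM. At 12 dpa the gene was at 3127, 2252, 2940 and 3364 CPM, 92.1% of the intact mean and overlapping the Intact range. It then stood at 2073, 1781, 1754 and 2114 CPM at 15 dpa and at 2688, 2074, 2524 and 2241 CPM at 28 dpa, below every Intact library. Because of this 1 gene the summed CPM of all members ran from 9776 ± 742.5 in Intact to 5147 ± 654.3 at 12 dpa (SD, n = 4), whereas without it the sums were 6605 and 2226.

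The next genes by reads came back less far. LOC112570489 held 708, 580.4, 687 and 595 CPM in Intact and 151, 161, 175 and 162 CPM at 9 dpa. Its 12 dpa libraries, at 177, 159, 156 and 152 CPM, overlapped those of 9 dpa. It was at 327, 320.0, 375 and 326 CPM at 28 dpa, or 52.4% of the intact mean. LOC112575112, LOC112553874, LOC112555398, LOC112574066 and LOC112566798 had intact means between 300.1 and 389.8 CPM and reached 32.0% to 61.5% of them at 28 dpa. LOC112554233 was lower after the loss than those, at 1.19% of intact at 1 dpa, and was at 70.8% at 12 dpa and 59.2% at 28 dpa.

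A few members returned steeply. LOC112562392 had 19.7, 22.03, 19.7 and 18.3 CPM in Intact, at most 0.162 CPM in any library of 1 or 3 dpa, and 0.257, 0.878, 0.302 and 0.800 CPM at 6 dpa. At 9 dpa it held 17.9, 13.2, 14.8 and 11.1 CPM, a 25.5-fold step by means and the highest share of intact in the list, 71.4%. It was at 37.2, 26.4, 44.4 and 54.9 CPM at 12 dpa, all above the Intact libraries and 204% of their mean. LOC112557022 went from 1.83, 0.993, 0.634 and 1.29 CPM at 6 dpa to 27.0, 15.7, 34.3 and 15.7 CPM at 9 dpa and 103.4, 57.6, 118.3 and 135 CPM at 12 dpa. Its Intact libraries held 147, 135, 121 and 105.5 CPM.

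LOC112558027 had a 31.4-fold step from 6 to 9 dpa by means and an uneven level. Its 9 dpa libraries held 10.1, 4.18, 1.54 and 1.58 CPM. Without the first of them the step was 17.6-fold, below the 23.3-fold and 18.4-fold that LOC112562392 and LOC112557022 gave without the same library. The 15 dpa libraries held 15.2, 2.18, 1.90 and 1.25 CPM, and the 21 dpa libraries 1.29, 2.49, 2.21 and 11.1 CPM. One library also stood far above the others at 15 dpa and at 21 dpa, and the Intact libraries, at 8.11, 6.09, 5.44 and 7.88 CPM, were more even. LOC112575478, the next by share of intact at 9 dpa, also split within its groups: 5.60, 3.92, 10.9 and 11.3 CPM at 9 dpa, and 24.0 CPM in Intact replicate 1 against 11.4 to 12.3 CPM in the other Intact libraries. At 12 dpa it was lower in all 4 libraries, at 1.93, 1.75, 0.961 and 2.78 CPM.

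**Figure D2:**
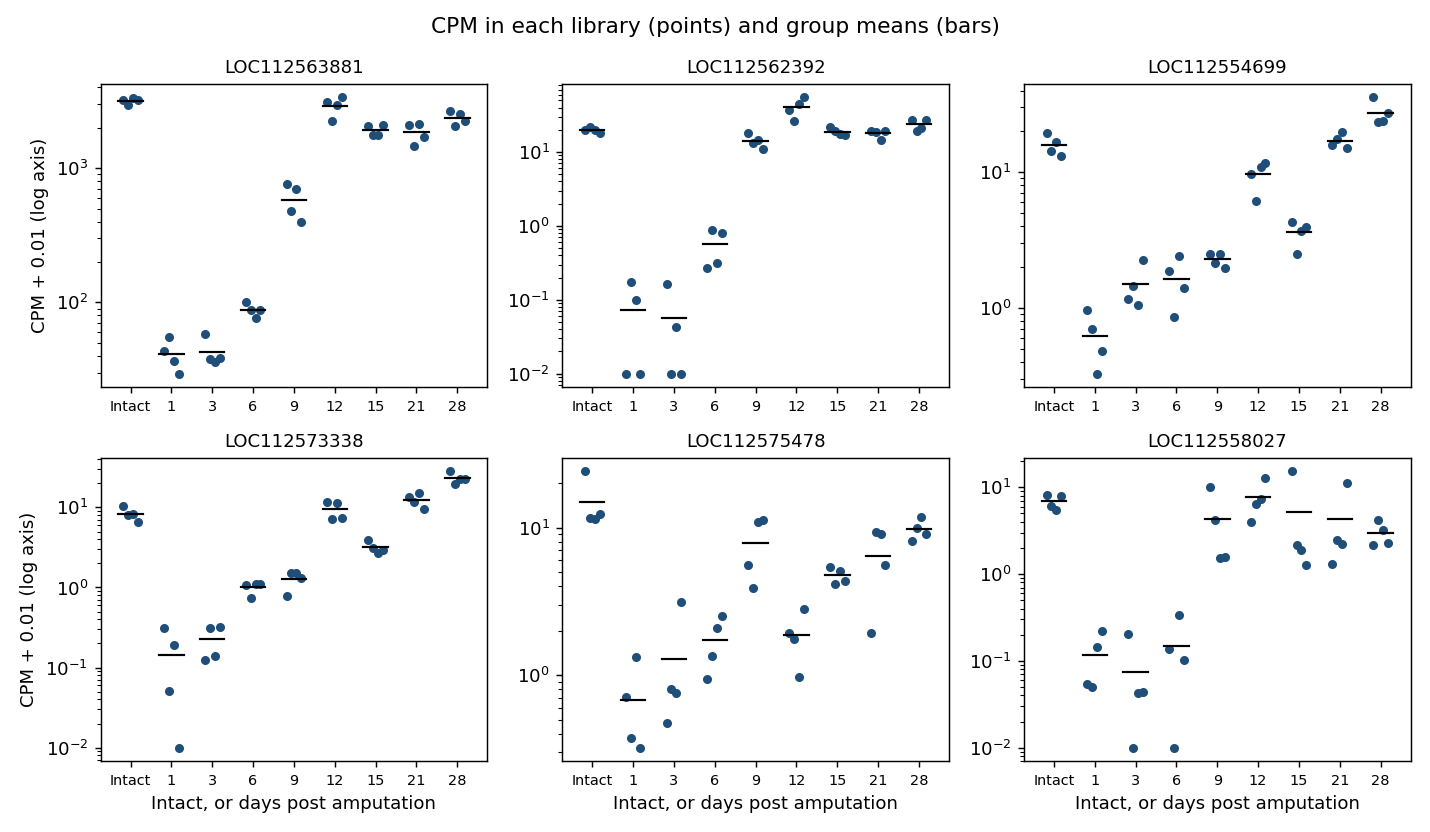
CPM plus 0.01 on a log axis (points, 1 per library; bars, group means) for 6 members in Intact and at each day after amputation. At 12 dpa LOC112562392 is above its Intact libraries and LOC112563881 at 92.1% of its Intact mean, and both are lower at 15 dpa; LOC112554699 and LOC112573338 are low at 15 dpa between higher 12 and 21 dpa levels, LOC112575478 is low at 12 dpa, and LOC112558027 has 1 high library at 15 dpa and 1 at 21 dpa.

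After 9 dpa the members did not climb in step. By group means 81 of the 96 were highest at 28 dpa among the 5 later groups, 14 at 12 dpa and 1 at 21 dpa. The mean was higher at every step from 9 to 28 dpa in 19 members. The choice of genes set a higher limit at 28 dpa than at 9 dpa, and shares over all genes were not counted. Nothing is therefore read from these counts. The median step was 1.77-fold from 9 to 12 dpa, 0.905-fold from 12 to 15 dpa, 1.24-fold from 15 to 21 dpa and 1.29-fold from 21 to 28 dpa. From 9 to 12 dpa all 4 libraries were higher in 65 members and lower in 3, beside 16% and 11.8% of all tested genes, and this contrast shares the 9 dpa libraries with the choice of genes.

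The 3 members whose 4 libraries were all lower at 12 than at 9 dpa went against the list. LOC112569670 was at 50.2, 50.4, 49.7 and 64.1 CPM at 9 dpa and at 32.3, 28.5, 32.7 and 26.7 CPM at 12 dpa. LOC112575478, given above, was the second. LOC112568736, named here after its values were seen, was the last, and its Intact libraries ranged widely, at 18.1, 1.29, 3.16 and 25 CPM. A further 8 members had a lower mean at 12 than at 9 dpa with overlapping libraries, among them LOC112561828 at 10.2 ± 3.90 CPM and 6.12 ± 5.24 CPM.

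**Figure D3:**
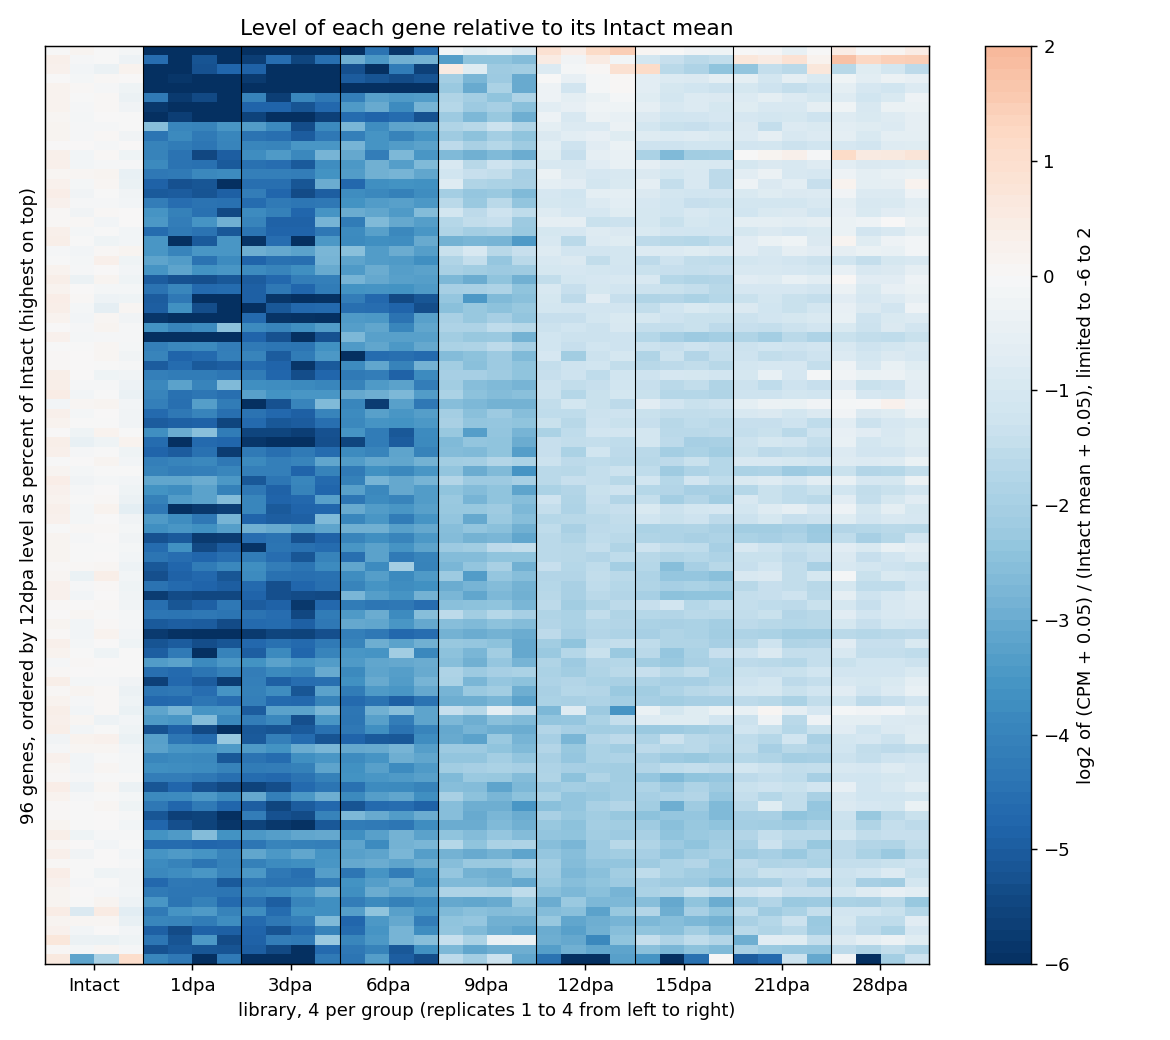
Heat map of log2 of CPM plus 0.05 over the Intact mean plus 0.05 (colour, limited to −6 to 2), with 1 row per gene, ordered by level at 12 dpa, and 1 column per library in 9 groups of 4. Dark blue at 1 to 6 dpa is fixed by the choice of genes, the 3 rows above intact at 12 dpa are at the top, and the bottom row is LOC112568736, uneven within Intact.

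The step from 12 to 15 dpa had no part in choosing the genes. Across it, 6 members rose and 13 fell (edgeR quasi-likelihood test, Benjamini-Hochberg adjusted p below 0.05 over 17341 genes). Of all tested genes 12.6% rose and 15.7% fell, so the members' shares, 6.25% and 13.5%, were not above the background in either direction. Their median log2 fold change was −0.15 beside −0.005 over all genes, and 33 of 96 were above 0. At an unadjusted p below 0.05 the counts were 11 and 21, beside 17.9% and 21.2% of all tested genes. Without replicate 3 of 12 dpa, or without replicate 3 of 15 dpa, 3 members rose and 8 fell, and single omissions gave up to 18 that fell. Calls over all tested genes were not counted for these omissions. A change in the members alone therefore cannot be told from one in all genes. Scaled to library size alone, 10 rose and 8 fell, where 2669 of all tested genes rose and 1721 fell, in place of 2177 and 2726. The share of higher among all called genes was 60.8% in place of 44.4%.

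The largest falls were in genes that had come back strongly by 12 dpa. LOC112573338 was at 11.8, 7.18, 11.5 and 7.38 CPM at 12 dpa and at 3.88, 3.13, 2.69 and 2.95 CPM at 15 dpa. The groups did not overlap, and the log2 fold change was −1.58 ± 0.21 (SE, edgeR adjusted p = 2.66e-06). LOC112554699 was at 9.67, 6.14, 10.99 and 11.8 CPM and then at 4.30, 2.48, 3.68 and 3.90 CPM, again without overlap. Its log2 fold change was −1.42 ± 0.23 (edgeR adjusted p = 3.62e-05). LOC112562392 fell by 1.12 ± 0.19 on the log2 scale (edgeR adjusted p = 3.62e-05), to 21.7, 19.3, 17.5 and 16.8 CPM, inside or just below its Intact range. LOC112563881 fell by 0.61 ± 0.18 (log2, edgeR adjusted p = 0.0116). LOC112554233 fell by 0.56 ± 0.19 (log2, edgeR adjusted p = 0.0277), a call lost under 7 of 16 alternatives. LOC112557022 was close to the threshold, at −0.73 ± 0.28 (log2, edgeR adjusted p = 0.0483), with a 12 dpa library of 57.6 CPM inside the 15 dpa range of 52.1 to 81.8 CPM. Its call was lost under 12 of 16 alternatives, among them DESeq2 at an adjusted p of 0.315. Leaving out replicate 1, 3 or 4 of 12 dpa gave an adjusted p of 0.0785, 0.112 or 0.149, and leaving out replicate 2, 3 or 4 of 15 dpa gave 0.0942, 0.114 or 0.127.

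The 6 that rose stood low at 12 dpa, at 12.5% to 25.9% of intact. At 9 dpa their median was 27.2%, beside 18.3% for all 96 members, but they ranged from 15.3% to 53.2%. LOC112561048 was the lowest of them at 9 dpa and had a higher mean at 12 dpa. LOC112570489 and LOC112563756 had overlapping libraries at 9 and 12 dpa, so a fall to 12 dpa was not shared by all 6. LOC112569670 went from 30.04 ± 2.93 CPM to 49.8, 52.7, 72.1 and 61.6 CPM by day 15, for a log2 fold change of 0.97 ± 0.16 (edgeR adjusted p = 5.07e-05), with no overlap. LOC112561048 went from 6.24, 6.44, 8.68 and 11.8 CPM to 18.6, 19.6, 19.3 and 14.4 CPM, a log2 fold change of 1.11 ± 0.27 (edgeR adjusted p = 0.00276). LOC112561828 rose by 1.31 ± 0.38 (log2, edgeR adjusted p = 0.00956), although its 12 dpa libraries, at 3.58, 13.7, 5.23 and 1.95 CPM, overlapped the 15 dpa range of 11.2 to 17.97 CPM. LOC112575478 rose by 1.34 ± 0.46 (log2, edgeR adjusted p = 0.0287), to 5.42, 4.13, 5.08 and 4.35 CPM. Its edgeR adjusted p was 0.0504, 0.0572 or 0.0839 without replicate 1, 2 or 3 of 12 dpa, and 0.059 or 0.0561 without replicate 1 or 3 of 15 dpa. LOC112570489 and LOC112563756, the latter named after its values were seen, were the other two. LOC112570489 rose by 0.43 ± 0.14 (log2, edgeR adjusted p = 0.0231), with adjusted p of 0.05, 0.077 and 0.0671 without replicate 3 or 4 of 12 dpa or replicate 3 of 15 dpa. Fitted to the 2 groups alone, LOC112561828 had an edgeR adjusted p of 0.101. LOC112574066 was not called, at 0.53 ± 0.21 (log2, edgeR adjusted p = 0.0541), and gained a call under 6 of 16 alternatives.

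As a description, since these classes were cut on the 12 and 15 dpa values themselves, the 13 genes that fell stood at a median of 64.3% of intact at 12 dpa and 41.2% at 15 dpa. The 6 that rose stood at 22.4% and 33.0%. At 28 dpa the medians were 59.2% and 60.7%. At 1 dpa the 13 had a median residue of 1.89% of intact, the 6 had 6.62%, and the 77 members called in neither direction had 4.68%. Ranges overlapped between the classes at 1 dpa, 0.315% to 9.32% in the first and 4.52% to 10.7% in the second.

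From 15 to 21 dpa, also unused by the choice of genes, 23 members rose and none fell in the edgeR quasi-likelihood test at the same threshold, beside 6.6% and 6.45% of all tested genes. At an unadjusted p below 0.05 the counts were 40 and 0, beside 14.9% and 13.9% of all tested genes. DESeq2 called 25 and 0, beside 7.8% and 6.53% of all genes it gave an adjusted p. The median log2 fold change of the members was 0.33 beside 0.01 over all genes, and 83 of the 96 were above 0. All 4 libraries were higher in 35 members and lower in 1, an order that 8.26% and 7.83% of all tested genes had. The number that rose in the test was 11 without replicate 2 of 15 dpa or without replicate 2 of 21 dpa. It was 13 without replicate 3 or without replicate 4 of 15 dpa. Calls over all tested genes were not counted for these omissions, so a loss in the members alone cannot be told from one in all genes. With scaling to library size alone the median of all genes moved to −0.10, and 12 members rose and 1 fell. Of all 17341 tested genes 645 then rose and 2308 fell, in place of 1144 and 1119. The share of higher among all calls was 21.8% in place of 50.6%.

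The 2 largest rises were in the genes with the 2 largest falls of the step before. LOC112554699 went from 2.48 to 4.30 CPM at 15 dpa to 15.8, 17.6, 19.9 and 14.9 CPM at 21 dpa, with a log2 fold change of 2.26 ± 0.23 (edgeR adjusted p = 1.48e-07). LOC112573338 went to 13.4, 11.5, 15.1 and 9.49 CPM, with a log2 fold change of 1.98 ± 0.21 (edgeR adjusted p = 1.56e-07). Both groups of libraries were free of overlap. Together with LOC112572720 and LOC112560398 they were the 4 members called lower at 15 dpa and higher again at 21 dpa. LOC112572720 held 41.3, 33.8, 42.9 and 38.4 CPM at 12 dpa, 32.6, 23.8, 24.2 and 24.6 CPM at 15 dpa and 48.3, 50.2, 54.2 and 41.8 CPM at 21 dpa. No member was called higher at both steps, 19 were called only at the second, and 58 at neither. Both steps use the 15 dpa libraries, and these classes were not counted over all tested genes. Nothing is therefore read from their sizes.

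LOC112576529 was next by size, at 6.53, 4.82, 4.78 and 4.16 CPM at 15 dpa and 12.3, 12.9, 8.47 and 11.6 CPM at 21 dpa, and its log2 fold change was 1.17 ± 0.22 (edgeR adjusted p = 0.000975). Among the 8 members with the most reads, 3 rose: LOC112575112 by 0.44 ± 0.12, LOC112553874 by 0.31 ± 0.10 and LOC112555398 by 0.58 ± 0.17 on the log2 scale. Their edgeR adjusted p values were 0.0176, 0.0394 and 0.0257, and the calls were lost under 3, 10 and 7 of 17 alternatives. Leaving out replicate 2 of 15 dpa gave adjusted p of 0.0812, 0.0975 and 0.104 in that order, and leaving out replicate 4 of 21 dpa gave 0.0592, 0.0866 and 0.0522. Without any single library of 15 or 21 dpa the adjusted p of LOC112553874 was between 0.0513 and 0.121. LOC112555398 missed the threshold also without replicate 3 or 4 of 15 dpa, at 0.0613 and 0.0522, and without replicate 2 or 3 of 21 dpa, at 0.0971 and 0.0515. LOC112563881 did not pass, with 2088, 1470, 2130 and 1703 CPM at 21 dpa and a log2 fold change of −0.05 ± 0.18 (edgeR adjusted p = 0.877).

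Set directly against 12 dpa, 21 dpa was higher in 32 members and lower in 8 (edgeR, same threshold), where 20.6% and 20.8% of all tested genes were called. The median log2 fold change of the members was 0.24 beside −0.004, and 72 were above 0. LOC112575478 gained most, at 1.81 ± 0.45 (log2, edgeR adjusted p = 0.00176), though its first 21 dpa library, at 1.93 CPM, lay within the 12 dpa range and the other 3 held 9.32, 9.01 and 5.54 CPM. LOC112561828 followed at 1.54 ± 0.38 (log2, edgeR adjusted p = 0.00151) and LOC112569670 at 1.36 ± 0.16 (log2, edgeR adjusted p = 8.11e-08). The largest falls were LOC112562392 at −1.17 ± 0.19 (log2, edgeR adjusted p = 5.23e-06), LOC112557022 at −0.93 ± 0.28 (log2, edgeR adjusted p = 0.00831) and LOC112563881 at −0.66 ± 0.18 (log2, edgeR adjusted p = 0.00388). By DESeq2 the fall of LOC112557022 had an adjusted p of 0.153, and fitted to the 2 groups alone the rise of LOC112561828 had one of 0.0531 by edgeR. The 3 contrasts among 12, 15 and 21 dpa share libraries with each other.

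From 21 to 28 dpa all 4 libraries were higher in 34 members and lower in 0, beside 2.63% and 3.59% of all tested genes, in a contrast that shares the 28 dpa libraries with the choice of genes. At 28 dpa most members were still short of intact. As a description, 76 of the 96 had all 4 libraries below all 4 Intact libraries and 2 had all 4 above them, beside 15.3% and 14.1% of all tested genes. The 2 above were LOC112573338 and LOC112554699. LOC112573338 held 28.1, 19.4, 22.5 and 22.8 CPM, against 10.3, 7.93, 8.21 and 6.63 CPM in Intact, which was 280.5% of the intact mean. LOC112554699 held 35.6, 23.3, 23.7 and 27.5 CPM against 19.6, 14.4, 16.7 and 13.2 CPM, or 172.7%. LOC112562392 was at 119.9% with overlapping libraries. The lowest shares were those of LOC112568459, LOC112568903 and LOC112573341, at 25.9%, 28.2% and 30.9%.

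To measure the rule's own contrasts on libraries that had not chosen the genes, the rule was applied to 2 libraries per group. The genes were then tested in the other 2. If libraries of a group share animals, the unused ones are not independent of the choice, and this was not tested. The calls below therefore show how far the contrasts repeat between libraries of a group, and nothing is read from them about other animals. Replicates 1 and 2 chose 123 genes, of which 79 are among the 96, and replicates 3 and 4 chose 86, of which 71 are. Both pairs of replicates chose 57 genes, which is 57 of 123 and 57 of 86. The calls are for the 123 and the 86 genes and not for the 96 members as such. In the unused libraries the median was 21.6% of intact at 9 dpa in the 123 genes and 17.2% in the 86. At 6 dpa, however, 76 of the 123 genes and 75 of the 86 were at or under an eighth in the unused libraries, and at 9 dpa 14 and 17 still were.

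In the unused libraries the loss at 1 dpa was near complete, with 120 of 123 and 85 of 86 genes called lower (adjusted p below 0.05, edgeR). The same call was made for 34.5% and 31.7% of all genes tested there. Median log2 fold changes were −4.32 and −4.56. One gene, LOC112557022, had no counts in replicates 3 and 4 of 1 dpa, and with it set at a floor of 3 counts over both the first median was still −4.32.

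The return from 6 to 9 dpa was called in 55 of 123 genes and in 50 of 86, none in the other direction, with 6.31% and 2.95% of all genes called higher and 4.48% and 0.867% called lower. The median log2 fold changes were 1.10 and 1.32. With 2 libraries per group these counts leaned on single libraries, and both fell when one was left out. Calls over all genes were not counted for those omissions. LOC112563881 rose in both pairs of unused replicates, by 2.74 and 2.73 on the log2 scale, and LOC112562392 by 4.55 and 4.82. LOC112558027 rose in replicates 1 and 2, by 6.58, and was not called in replicates 3 and 4, at 2.85.

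From 9 to 12 dpa the unused libraries gave 61 genes higher and 4 lower of 123, and 43 higher and 1 lower of 86. All-gene shares were 12.1% higher and 8.89% lower in the first, and 3.43% and 4.12% in the second. Median log2 fold changes were 0.83 and 0.81. Both counts of higher genes fell when a single library was left out, and calls over all genes were not counted for those omissions. LOC112569670 fell in both pairs of unused replicates, by 0.93 and 0.73 on the log2 scale. LOC112563881 rose in both, by 2.54 and 2.11. LOC112575478 fell by 2.53 in replicates 3 and 4 and was not chosen for a test in the others.

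From 21 to 28 dpa no gene of either set was called by edgeR, where 0.362% of all genes were called higher in replicates 3 and 4 and 0% in replicates 1 and 2. At an unadjusted p below 0.05 there were 34 higher and 1 lower of 123, beside 7.48% and 7.54% of all genes, and 12 higher and 0 lower of 86, beside 2.69% and 2.63%. DESeq2 called 10 of the 123 and 0 of the 86 higher. In all genes it called 2.39% higher and 2.45% lower in replicates 3 and 4, and 0.0509% and 0.0636% in replicates 1 and 2. The median log2 fold changes were 0.38 and 0.34. Against Intact, 28 dpa was lower in 56 of 123 and in 56 of 86 genes, and higher in 2 and 0, with 7.49% and 6.23% of all genes called lower and 6.54% and 5.33% called higher. Median log2 fold changes were −0.82 and −1.06. When a single library was left out the first count of lower genes fell, and the second moved in both directions. Calls over all genes were not counted for those omissions. LOC112554699 was higher than intact in replicates 3 and 4, by 0.81 on the log2 scale.

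**Figure D4:**
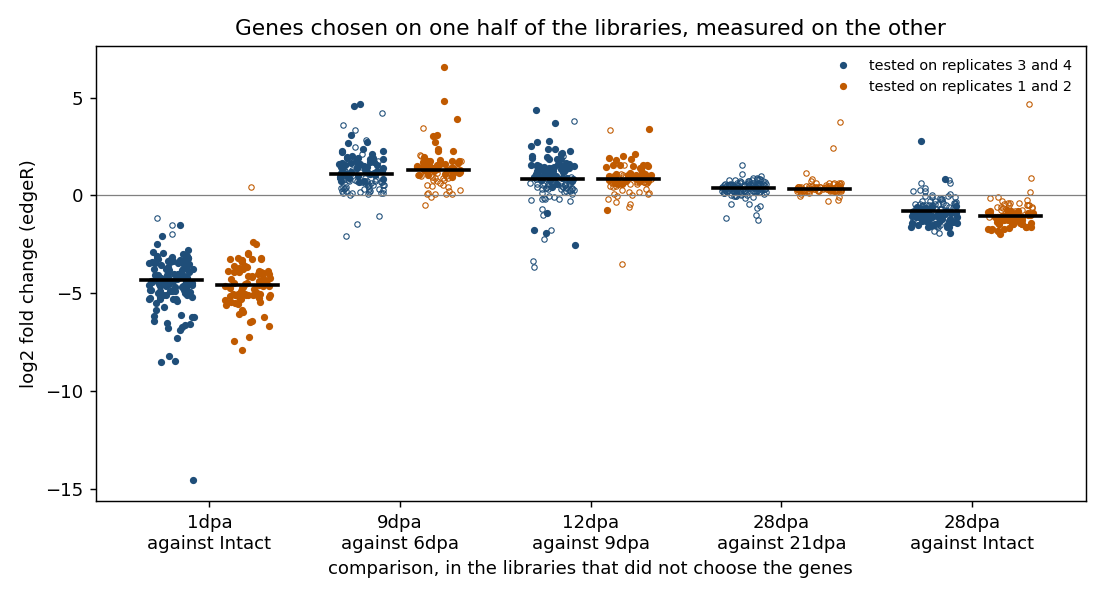
Log2 fold change (edgeR) of each gene chosen by the rule on 2 replicates per group, measured on the other 2, for 5 comparisons: blue, 123 genes on replicates 3 and 4; orange, 86 genes on replicates 1 and 2. Filled points passed an adjusted p of 0.05, black bars are medians, and the lowest point is the fitted value of LOC112557022, which had no counts at 1 dpa in those libraries. The medians lie near −4.3 and −4.6 at 1 dpa, between 0.8 and 1.3 for the steps to 9 and 12 dpa, and below 0 for 28 dpa against Intact.

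The same rule shifted in time gives 2 related lists, 137 genes first back over an eighth at 6 dpa and 124 not back before 12 dpa. The rule sets their order at 6 dpa between the first list and the others, and at 9 dpa between the second and the third, and it caps all of them at an eighth at 1 and 3 dpa. Under that cap the medians at 1 dpa were 5.62%, 4.64% and 1.54% of intact, from the earliest to the latest list, and at 3 dpa 8.63%, 4.62% and 1.63%. At 12 dpa the medians were 39.4% of intact for the 6 day genes, 34.2% for the 9 day genes and 21.4% for the later ones. At 28 dpa they were 54.0%, 53.6% and 37.5%. Between 12 and 15 dpa edgeR called 18 higher and 15 lower of the 137, 6 and 13 of the 96, and 0 and 34 of the 124. Those are 13.1% and 10.9%, 6.25% and 13.5%, and 0% and 27.4%, beside 12.6% and 15.7% of all tested genes. The median log2 fold changes were −0.01, −0.15 and −0.35. Between 15 and 21 dpa edgeR called 24 higher and 3 lower of the 137, 23 and 0 of the 96, and 69 and 1 of the 124. Those are 17.5% and 2.19%, 24% and 0%, and 55.6% and 0.806%, beside 6.6% and 6.45% of all tested genes. The medians were 0.23, 0.33 and 0.74. The 9 day genes thus lay between the other lists in each of these medians; differences between the lists were not tested.

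**Figure D5:**
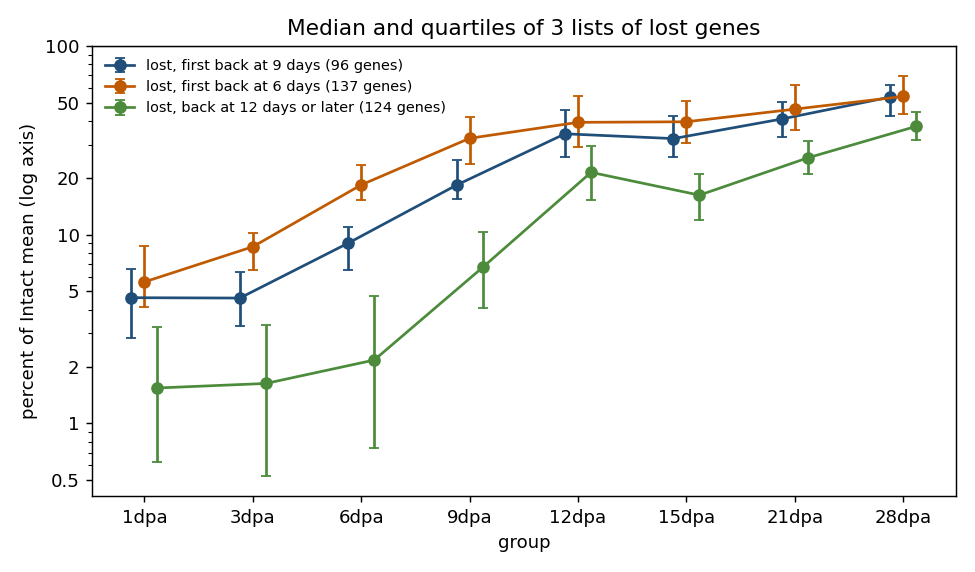
Median percent of the Intact mean (points, log axis) with quartiles (bars) by group, for genes first back at 6 days (137), at 9 days (96) and at 12 days or later (124). The 6 and 9 day genes end at 54.0% and 53.6% at 28 dpa, the later genes at 37.5%.

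In the RefSeq gene table few members were neighbours. LOC112572371 and LOC112572370 lie next to each other, as do LOC112564068 and LOC112564069, and LOC112560482 and LOC112566849 have 2 genes between them. LOC112572371 and LOC112572370 were at 3.27% and 4.87% of intact at 1 dpa, 20.3% and 28.4% at 9 dpa, and 65.8% and 53.3% at 28 dpa. LOC112572371 thus had the lower share at 1 and 9 dpa and the higher one at 28 dpa, as it had at 12 dpa, with 39.8% against 29.9%. LOC112564068 and LOC112564069 were at 17.9% and 16.8% of intact at 9 dpa. They stood at 35.7% and 42.4% at 21 dpa and at 44.9% and 40.0% at 28 dpa, so their order changed. Both had their highest 6 dpa level in the third library, 2.17 and 2.56 CPM, against at most 0.996 and 0.932 CPM in the others. Whether neighbouring genes share reads was not tested, since the sources used here do not give how reads that fit several genes were counted.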

How the data were processed

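Counts of reads per gene for 36 libraries were deposited by the authors in 1 table of 21131 genes. Per the submitters' processing notes reads were aligned with STAR; the sources used here do not give its version, the genome build, the annotation or the strand setting. Genes were matched by symbol to a RefSeq table of assembly ASM307304v1, used for names and neighbours only.

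Groups and replicate numbers came from the labels. For the choice of genes, those with summed counts of 10 or more (19622) were scaled by TMM, and CPM was averaged over 4 libraries. For tests, edgeR 4.0.16 (R 4.3.3) filterByExpr left 17341 genes, 615 genes having no count, and 1 robust quasi-likelihood fit (glmQLFit, legacy mode off) covered all groups, with Benjamini-Hochberg adjustment at 0.05, 2-sided. SE came from the F statistic. Depth was 21797015 to 32928737 counts, and the floor of 3 counts covers counting error only.

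The members, lists, contrasts and named genes were chosen with earlier results of these data known. Genes named in the text are the 8 of highest intact CPM, the 3 highest and lowest shares of intact at 9 and 28 dpa, the 3 largest called changes per contrast and direction, those beside each threshold, and neighbours; others are said to be chosen after seeing values or follow from counts of 5 or fewer. Named parts of the rule that needed protein or product tables found none. Alternatives were RLE scaling, library size alone, other filters, DESeq2 1.42.0, a fit to the groups compared, a replicate term, other thresholds of the rule, and each library left out; legacy mode, a fit without 12 dpa, the 6 to 9 dpa fold without each 9 dpa library, and the omissions within the 2-replicate fits were added after seeing the data.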

Additional observations from a re-analysis of the deposited data

Results flagged for a closer look

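In groups of 4 libraries, the highest or lowest value was marked where its gap to the nearest other library exceeded Dixon's 95% critical share of the group's range. Of 279 groups of values 25 were marked, and chance marks about 1 in 20. Their part in the results was not tested.

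In Intact, LOC112575478 was 24.0 CPM in one library against 11.4 to 12.3 CPM in the others, and LOC112564068 was 7.40 CPM against 9.41 to 9.79 CPM. At 1 dpa, LOC112553874 was low in one library at 9.06 CPM, LOC112555398 high at 60.0 CPM against 29.8 to 33.7 CPM, and LOC112566798 high at 33.7 CPM. At 3 dpa, one library was high for LOC112563881 at 58.5 CPM, LOC112570489 at 71.2 CPM, LOC112575478 at 3.12 CPM and LOC112576529 at 1.70 CPM.

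At 6 dpa, LOC112566395 was high at 0.862 CPM, LOC112564069 high at 2.56 CPM and LOC112573338 low at 0.725 CPM. At 9 dpa, LOC112566395 was low at 0.657 CPM, and LOC112568459 at 2.96 CPM, LOC112569670 at 64.1 CPM and LOC112566849 at 5.95 CPM were high. At 12 dpa LOC112573341 was low at 31.9 CPM. At 15 dpa the median member was 34.0% of intact in one library and 30.4% to 30.7% in the others.

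LOC112558027 had one high library at 15 dpa, 15.2 CPM against 1.25 to 2.18 CPM, and one at 21 dpa, 11.1 CPM against 1.29 to 2.49 CPM. LOC112566849 was high at 8.98 CPM at 15 dpa and at 10.5 CPM at 21 dpa, and LOC112562392 low at 14.5 CPM at 21 dpa. At 28 dpa LOC112570489 was high at 375 CPM and LOC112564069 at 5.58 CPM.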

How the results depend on the processing

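The list held 91 to 100 genes when a library was left out, 191 with a loss to 1/4, 63 with a loss to 1/16 and 152 with 1 CPM in Intact. Scaled to library size alone, 10 members rose and 8 fell from 12 to 15 dpa, and 12 rose and 1 fell from 15 to 21 dpa. Over all 17341 tested genes the counts were 2669 and 1721, and 645 and 2308. The cause was not tested. Leaving out single libraries gave 3 to 6 higher and 8 to 18 lower from 12 to 15 dpa, 11 to 21 higher and 0 lower from 15 to 21 dpa, and 24 to 30 higher and 7 to 10 lower from 12 to 21 dpa. In the 123 genes the ranges were 115 to 120 lower at 1 dpa, 23 to 41 higher from 6 to 9 dpa, 34 to 50 from 9 to 12 dpa, 0 from 21 to 28 dpa and 25 to 42 lower than Intact at 28 dpa. In the 86 genes they were 84 to 85, 11 to 39, 9 to 29, 0 and 36 to 59, with the lone library left in a group assumed to vary like the other groups. DESeq2 called 10 of the 123 genes higher from 21 to 28 dpa, beside 2.39% of all genes. With the replicate number as a block, 6 members rose and 16 fell from 12 to 15 dpa, 22 rose from 15 to 21 dpa, and 34 rose and 8 fell from 12 to 21 dpa. Over all tested genes that fit gave 2202 and 2803, 1149 and 1107, and 3581 and 3618. Whether the numbers pair the libraries was not settled. Over 144 same-numbered pairs the correlation of deviations ran from −0.213 to 0.292, with 25 over 0.1. Unlike-numbered pairs were looked at among 12, 15 and 21 dpa only. There they ran from −0.267 to 0.223, and same-numbered pairs from −0.205 to 0.208. The replicate highest in most members was number 1 in Intact and at 1, 9, 15 and 28 dpa, number 4 at 3, 6 and 12 dpa, and number 2 at 21 dpa. EdgeR's legacy mode gave 5 and 9, 16 and 0, and 30 and 8. Its counts over all tested genes were 2037 and 2588, 962 and 976, and 3353 and 3469. In the main fit they were 2177 and 2726, 1144 and 1119, and 3567 and 3607. Of 33 tested values of named genes, not all were called in the main fit. Among those called, 10 lost their call in at least 1 alternative. Among those not called, 3 gained a call, and none of the 33 reversed. Genes of few CPM are limited by depth, 1 CPM being 19.2 counts in the smallest library.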
